A study of Homo sapiens with 2 samples.

Results

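WNT ligands, Frizzled receptors, their LRP co-receptors and the secreted WNT antagonists were examined as 1 set of genes, named by symbol. The set holds every measured gene whose symbol is WNT, FZD, SFRP or DKK with a number and an optional letter, together with LRP5, LRP6 and AXIN2, without antisense transcripts and without 1 WNT gene not reported here. It comprised 39 of the 18377 genes in the array table: 18 WNT ligands, 10 Frizzled receptors, 2 LRP co-receptors, 4 SFRP and 4 DKK antagonists, and AXIN2. The samples were 1 array of EBC1, labelled as the wild type cell line, and 1 array of EBC1-R. EBC1 cells come from a human squamous carcinoma of the lung in which MET, a receptor tyrosine kinase gene, is amplified. EBC1-R is a subline that survived rising concentrations of the MET inhibitor PHA-665752 and was kept in medium with 3 µM of it. No inhibitor is named for the medium of EBC1, so selection for resistance and the presence of the drug cannot be told apart.

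WNT proteins are secreted, lipid-modified ligands that bind Frizzled receptors at the cell surface. With LRP5 or LRP6 as co-receptor they halt the destruction of beta-catenin, which then activates target genes with TCF and LEF factors. Other WNT and Frizzled combinations steer cell shape and movement without beta-catenin. SFRP proteins bind the ligands themselves, DKK proteins block LRP5 and LRP6, and AXIN2 is both a beta-catenin target and a brake on the pathway. In the lung the pathway takes part in airway branching and repair, and several of its secreted antagonists are often silenced in lung cancers.

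Each group had 1 array, so no value has a replicate error, no test between the lines was possible, and the number of arrays limits the precision. Levels are log2 intensities as deposited, and differences are EBC1-R minus EBC1 on that scale. A guide to size came from the 374 genes above a level filter that had several probe sets, whose differences had a pooled SD of 0.16 between probe sets of the same gene. That SD holds no variation between cultures. The level filter was 7.41, the median over all genes of the higher of both values. Percentiles place a probe set in the intensities of its own array and are not a ranking of transcript amounts, since probe sets bind with different strength. The epithelial markers CDH1, EPCAM, KRT8, KRT18, KRT19 and CLDN4 were all above the filter. Among them the keratins KRT8, KRT18 and KRT19 were 1.77-, 1.72- and 1.86-fold lower in EBC1-R, CDH1, EPCAM and CLDN4 differed by 0.10, -0.08 and 0.09, and the median of the 6 was -0.43. The lower keratins thus move the same way as the lower members described next, and their part in those readings was not tested. None of the 5 measured squamous markers was above the filter (KRT5, KRT14, SOX2, DSG3 and PKP1, from 5.19 to 7.26 in EBC1 and from 5.13 to 6.97 in EBC1-R). These 5 thus do not show the lineage given for EBC1. The squamous markers TP63 and KRT6A had no probe set with 1 gene name and could not be read. Markers of other cell types read at 4.84 to 5.68 (5 endothelial), 4.54 to 7.64 (6 fibroblast) and 4.56 to 11.04 (6 leukocyte) in EBC1, the last only through CD68, a lysosomal protein many cells make. Those ranges were 4.91 to 5.67, 4.56 to 7.61 and 4.65 to 11.45 in EBC1-R. Many members lay in the same range as these markers, and whether such values exceed background was not tested.

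WNT7A was the 1 member at least 2-fold different, at 2.10-fold lower in EBC1-R, and no member was 2-fold higher. Among all genes 0.887% were at least 2-fold lower and 1.26% at least 2-fold higher. At 1.5-fold, WNT7A, SFRP1 and WNT5A were lower and the receptors FZD2 and FZD7 were higher. The 3 lower members are 7.69% of the 39, beside 3.16% of all genes, and the 2 higher are 5.13%, beside 4.41%. The 1 member 2-fold lower is 2.56%, and each of these shares moves by that much with a single gene. The median size of difference, regardless of sign, was 0.13 in the members and 0.16 in all genes, and above the level filter 0.26 in the members and 0.21 in all genes.

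Of the 39 members, 26 were lower and 13 higher, beside 55.5% lower among all genes. The difference was larger than the guide of 0.16 in 19 members, 16 of them lower, and within it in 20. Among all genes 49.6% were over the guide, and 4968 of those 9111 genes were lower. The count of lower members was 24 after quantile normalization or median centring and 23 after a lowess trend was removed, with WNT5B, AXIN2 and, after lowess, WNT6 changing sign. The members' median difference was -0.10 beside -0.03 for all genes. Only 14 members reached the level filter, 9 on both arrays, 4 in EBC1 alone (WNT7A, FZD1, FZD8 and FZD9) and 1 in EBC1-R alone (FZD2). Of these 14, 11 were lower, with a median of -0.24, beside 50.2% lower and a median of -0.002 among all genes above the filter. The difference exceeded the guide in 10 of the 14, 71.4% beside 61.7% of all genes above the filter. The 5 that passed on 1 array did so on the array where they were higher. Of the 9 above the filter on both arrays 7 were lower, with a median of -0.28, beside 50.9% and -0.008 among all such genes. In 5 of the 9 the difference exceeded the guide, 55.6% beside 58.9% of all such genes. Their values follow by role.

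**Figure D1:**
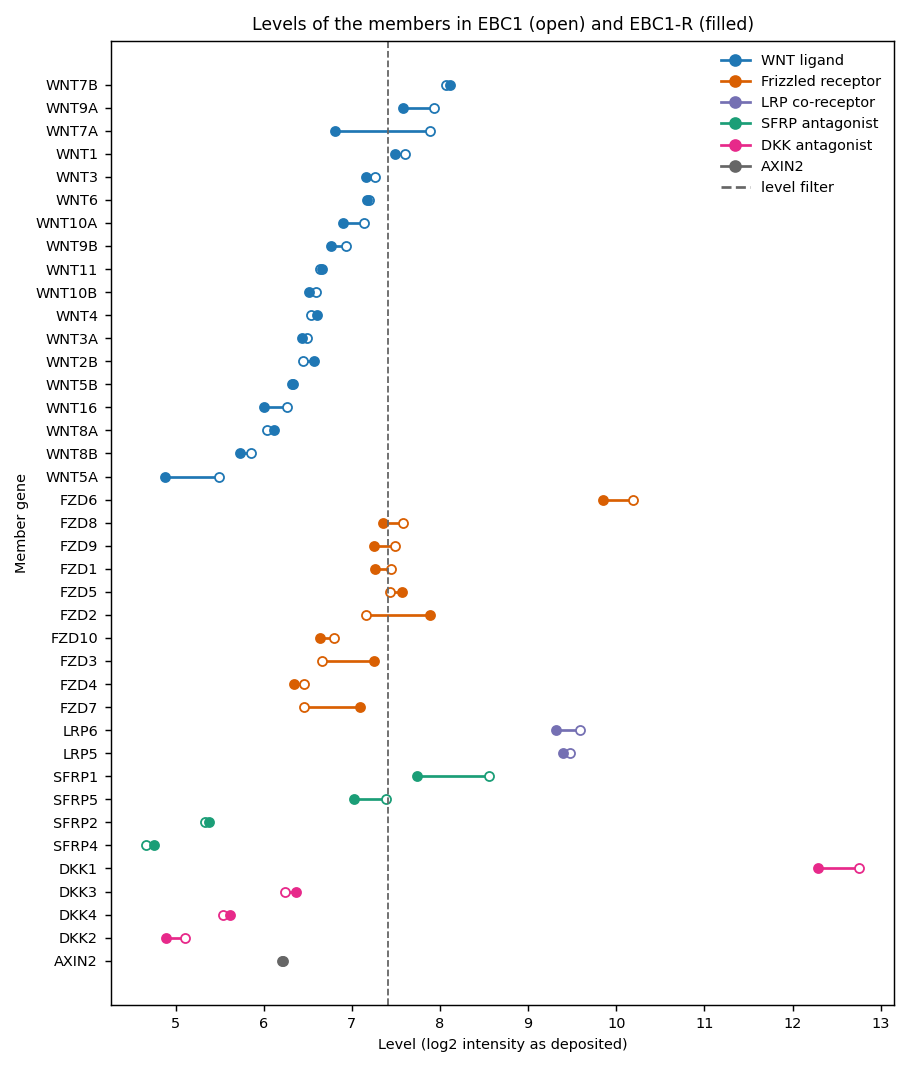
Levels of the 39 members as log2 intensity (x axis), with EBC1 as open and EBC1-R as filled circles joined by a line, coloured by class; the dashed line is the level filter at 7.41. DKK1, FZD6, LRP5 and LRP6 stand to the right of the filter in both lines, and WNT7A crosses it from 7.88 to 6.81.

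Among the ligands, WNT7A had the largest difference. WNT7A is a ligand studied in lung cancer cells together with FZD9 as a restraint on growth. It read at 7.88 in EBC1, the 67.9th percentile of probe sets, and at 6.81 in EBC1-R, the 51.8th, a difference of -1.07. Of all genes, 0.735% had a difference as low or lower. With a pseudocount of 16 added before the logarithm the difference was -0.97, short of 2-fold. WNT7B, its close paralog, known from the embryonic airway epithelium, read at 8.07 in EBC1 against 8.11 in EBC1-R, differing by 0.04. The lower reading of WNT7A was thus not shared by its paralog, though whether either probe set binds the other transcript was not tested.

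WNT5A, a ligand best known for signalling without beta-catenin, read at 5.50 in EBC1 against 4.88 in EBC1-R, differing by -0.62. Both values are low, at the 24.8th and 12.5th percentiles. The EBC1 value lies inside the range of the endothelial markers on that array (4.84 to 5.68). The EBC1-R value of WNT5A lies just below the range of those markers in EBC1-R (4.91 to 5.67). WNT5B, its paralog, read at 6.33 in EBC1 and 6.32 in EBC1-R. The difference of WNT5A was -0.43 when a pseudocount of 16 was added, which lessens differences at low intensity, short of 1.5-fold. After lowess it was -0.5846, on the edge of 1.5-fold (0.5850) and not counted.

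The start regions of WNT7A, WNT5A and WNT5B are shown because they belong to the ligands 1.5-fold lower and to the paralog that was not. That of DKK1 is shown because it was the member with the brightest readings. Each is the RefSeq sequence (GRCh38.p14) from 250 bases before to 50 after the gene's start, 5′ to 3′ on the gene's strand. The places are chr3:13880022-13880321 on the minus strand for WNT7A, chr3:55487257-55487556 on the minus strand for WNT5A, chr12:1616806-1617105 on the plus strand for WNT5B and chr10:52314031-52314330 on the plus strand for DKK1. Capitals mark every match, on either strand, to the letters searched: the GC box GGGCGG, the ETS core CCGGAA, the TATA box TATAAA, the AP-1 site TGANTCA, and for TCF/LEF CTTTGAA or CTTTGAT or CTTTGTA or CTTTGTT. No matches of different motifs overlap in these 4 sequences.
WNT7A: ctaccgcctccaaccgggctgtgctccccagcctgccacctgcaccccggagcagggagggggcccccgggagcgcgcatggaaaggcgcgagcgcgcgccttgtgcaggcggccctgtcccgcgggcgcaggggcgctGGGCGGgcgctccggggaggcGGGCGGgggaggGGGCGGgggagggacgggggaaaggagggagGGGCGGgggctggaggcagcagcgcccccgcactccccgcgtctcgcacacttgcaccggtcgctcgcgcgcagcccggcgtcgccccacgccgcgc
WNT5A: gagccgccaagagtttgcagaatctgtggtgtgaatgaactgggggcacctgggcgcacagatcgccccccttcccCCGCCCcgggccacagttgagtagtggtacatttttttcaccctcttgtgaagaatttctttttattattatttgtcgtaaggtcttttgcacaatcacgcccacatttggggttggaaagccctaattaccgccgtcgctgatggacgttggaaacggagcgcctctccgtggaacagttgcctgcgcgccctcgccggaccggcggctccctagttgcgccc
WNT5B: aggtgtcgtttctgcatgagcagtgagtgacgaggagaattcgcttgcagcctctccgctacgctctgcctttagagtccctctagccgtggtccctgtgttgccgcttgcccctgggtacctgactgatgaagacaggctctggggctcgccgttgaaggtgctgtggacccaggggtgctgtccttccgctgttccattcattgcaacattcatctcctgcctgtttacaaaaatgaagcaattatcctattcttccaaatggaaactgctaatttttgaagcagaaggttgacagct
DKK1: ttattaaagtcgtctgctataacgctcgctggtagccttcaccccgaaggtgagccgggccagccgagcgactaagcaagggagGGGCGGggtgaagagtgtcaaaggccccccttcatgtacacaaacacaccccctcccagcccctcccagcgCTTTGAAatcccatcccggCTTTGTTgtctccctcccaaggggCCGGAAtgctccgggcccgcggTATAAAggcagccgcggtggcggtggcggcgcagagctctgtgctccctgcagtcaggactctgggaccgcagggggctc

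The WNT7A window holds 4 GC boxes and 40 CpG pairs and is 80.3% G and C. In WNT5A the window has 1 GC box, 21 CpG pairs and 56.3% G and C, and in WNT5B no searched letters, 10 CpG pairs and 51.7%. The DKK1 window holds 2 TCF/LEF matches, 1 ETS core, 1 GC box and a TATA box. Start regions were at hand for 25 members. Of these, 21 held a GC box, 84.0% beside 44.6% of 27305 promoters of the same length, and 2 (DKK1 and WNT3) held a TCF/LEF match, 8% beside 13.9%. The ETS core was in 1 of 25 (4%, beside 17.6%), the TATA box in 2 (8%, beside 12.0%) and the AP-1 site in none, beside 7.76%. The 25 were richer in G and C than promoters at large, with a median of 73.7% beside 58.3%, and a match is a description of letters, not a bound site.

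Of the other ligands, WNT9A and WNT1 were above the level filter. WNT9A, a ligand of skeletal and blood development, read at 7.93 in EBC1 against 7.58 in EBC1-R, differing by -0.35. WNT1, the founding mammalian ligand of beta-catenin signalling, read at 7.60 in EBC1 against 7.48 in EBC1-R, differing by -0.12. All the rest (WNT2B, WNT3, WNT3A, WNT4, WNT5B, WNT6, WNT8A, WNT8B, WNT9B, WNT10A, WNT10B, WNT11 and WNT16) were under the filter on both arrays and none reached 1.5-fold. Largest among them was WNT16, a ligand of bone and keratinocytes, at -0.26, followed by WNT10A, of teeth and skin appendages, at -0.24. Over all 18 ligands 13 were lower (11 after lowess), with a median of -0.09. For the 4 above the filter, WNT7A among them, the median was -0.23. WNT7A passed in EBC1 alone, where it was higher. The others, WNT7B, WNT9A and WNT1, passed on both arrays and differed by 0.04, -0.35 and -0.12.

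Paralog pairs of ligands otherwise read alike in direction or differed by small amounts. WNT3 and WNT3A, both classical activators of beta-catenin, differed by -0.10 and -0.06. WNT9B, a kidney-inducing ligand, and WNT10B, studied in bone and fat, differed by -0.16 and -0.08. WNT8A and WNT8B, ligands of the early embryo and forebrain, differed by 0.09 and -0.13. The difference between paralogs was 1.11 log2 units for the WNT7 pair and 0.61 for the WNT5 pair, and from 0.03 to 0.22 for the WNT3, WNT8, WNT9 and WNT10 pairs. WNT2B, WNT4 and WNT11, at 0.13, 0.06 and 0.03, were slightly higher, and WNT6 differed by -0.02.

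The largest positive differences of the set were among Frizzled receptors, although 6 of the 10 Frizzled genes were lower. FZD2, a receptor able to bind WNT5A and WNT3A, read at 7.16 in EBC1 against 7.88 in EBC1-R, differing by 0.72 or 1.65-fold. FZD7, often raised in carcinomas, read at 6.46 in EBC1 against 7.10 in EBC1-R, differing by 0.64 or 1.56-fold and under the level filter (0.56, short of 1.5-fold, with the pseudocount). FZD3, a receptor of axon guidance and planar polarity, read at 6.66 in EBC1 and 7.25 in EBC1-R, 1.498-fold higher and just short of the 1.5-fold count, which it passed after quantile normalization (0.59), median centring (0.60) and lowess (0.63). These 3 had the largest positive differences of the 39 members, and the largest elsewhere in the set was 0.13.

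The receptors that differed this way do not form a subfamily. FZD1, FZD2 and FZD7 are close in sequence, yet FZD1 read at 7.44 in EBC1 against 7.26 in EBC1-R, differing by -0.18. FZD3 and FZD6 form another pair, and FZD6 differed by -0.34, from 10.19 in EBC1 to 9.85 in EBC1-R. FZD6, which can restrain beta-catenin signalling, was the Frizzled with both readings at or above the 90.3rd percentile. Members of both subfamilies thus lay on opposite sides, 0.90 log2 units apart for the first and 0.92 for the second.

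FZD5, the receptor of gut Paneth cell maturation, read at 7.43 in EBC1 and 7.56 in EBC1-R. FZD8, its closest relative, read at 7.58 in EBC1 and 7.35 in EBC1-R. FZD9 read at 7.49 in EBC1 against 7.25 in EBC1-R, differing by -0.24 in the same direction as WNT7A and much smaller. FZD4, the receptor for norrin in retinal vessels, and FZD10 were under the filter and differed by -0.12 and -0.16. In all, 6 of 10 Frizzled genes were lower and 4 higher, under each scaling tried, with a median of -0.14. For the 6 above the filter the median was -0.21. Of those 6, FZD1, FZD8 and FZD9 passed in EBC1 alone and FZD2 in EBC1-R alone, each where it was higher. Only FZD5 and FZD6 passed on both arrays, and they differed by 0.13 and -0.34. FZD2, FZD3 and FZD7 stand well apart from the median of all 10.

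Both co-receptors were well above the level filter and lower, neither by 1.5-fold. LRP5, known for its part in bone mass, read at 9.48 in EBC1 and 9.40 in EBC1-R. LRP6, the co-receptor with the stronger signal to beta-catenin, read at 9.59 in EBC1 against 9.32 in EBC1-R, differing by -0.28. Each lay between the 85.3rd and 88.1st percentile of its array.

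**Figure D2:**
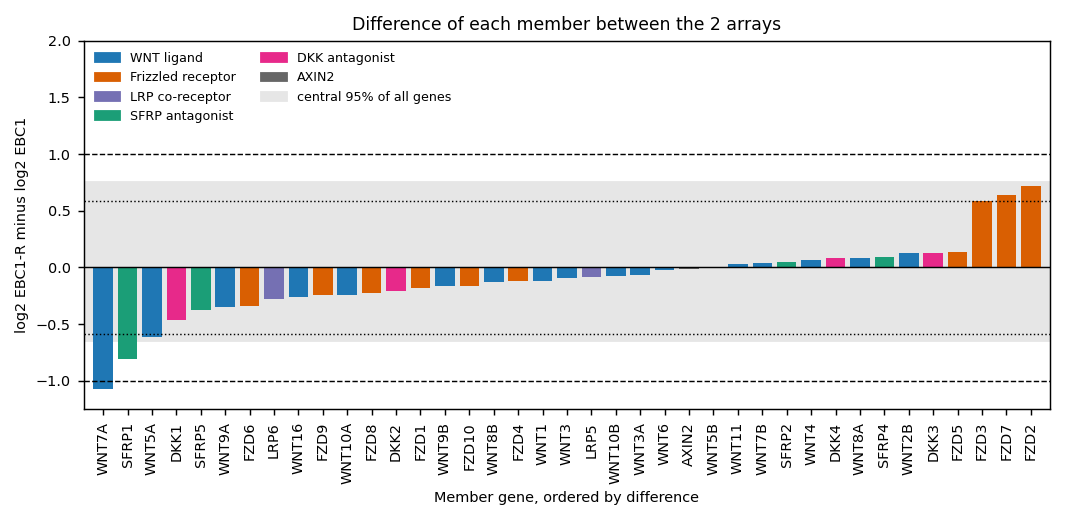
Difference of each of the 39 members, log2 EBC1-R minus log2 EBC1 (y axis), in order of size and coloured by class; grey shading is the central 95% of all genes, from -0.65 to 0.75, dotted lines mark 1.5-fold and dashed lines 2-fold. WNT7A and SFRP1 lie below the shading, and no member lies above it.

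Of the secreted antagonists, SFRP1 and DKK1 had the largest differences and both were lower. SFRP1, which binds WNT ligands and is often silenced by methylation in carcinomas, read at 8.55 in EBC1 against 7.74 in EBC1-R, differing by -0.81 or 1.75-fold. Of all genes, 1.58% had a difference as low or lower. SFRP5, under the level filter on both arrays, read at 7.39 in EBC1 against 7.02 in EBC1-R, differing by -0.37. SFRP2 and SFRP4 read at 5.33 and 4.67 in EBC1 and at 5.38 and 4.76 in EBC1-R, in the range of the endothelial and fibroblast markers. The SFRP median of -0.16 therefore lies between a lower pair and a pair at low intensity.

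DKK1, which removes LRP6 from signalling, read at 12.75 in EBC1 against 12.29 in EBC1-R, differing by -0.46 or 1.38-fold. Its readings were at the 99.6th and 99.2nd percentiles, the highest place of any member on either array. DKK2 and DKK4, which act on the same co-receptors, read at 5.10 and 5.53 in EBC1 and 4.90 and 5.61 in EBC1-R. DKK3, a divergent relative often called a tumour suppressor, had 2 probe sets, the only member with more than 1. One read 5.77 in EBC1 and 6.03 in EBC1-R, and the other the identical value of 6.71 in both lines. Identical values occurred in 548 probe sets, 1.90% of the table, and the cause was not tested. DKK1 was thus the 1 DKK gene above the filter.

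AXIN2, a widely used reporter of beta-catenin activity, read at 6.22 in EBC1 and 6.20 in EBC1-R. The difference of -0.01 turned positive under quantile normalization, median centring and lowess. At the 39.9th and 40.3rd percentiles AXIN2 was under the level filter on both arrays.

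The rest of the pathway was taken from lists of genes that are not members, 80 in all, of which 77 were measured. Of these, 56 were lower and 20 higher in EBC1-R (50 and 27 after lowess), with a median of -0.13. All genes, at 55.5% lower (51.0% after lowess, 50.2% above the level filter), are the background for this count and for those of the single lists. At 2-fold 4 of the 77 were lower and 1 higher, beside 0.887% lower and 1.26% higher among all genes. At 1.5-fold 7 of the 77 were lower and 2 higher, beside 3.16% and 4.41%. All of these genes were among the 43 of the 77 above the level filter, so the same counts hold for those 43. Of all genes above the filter, 1.67% were lower and 2.13% higher at 2-fold, and 5.5% and 7.03% at 1.5-fold. MMP7 passed that filter through EBC1-R alone.

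Of the 5 genes past 2-fold, 4 were in the list of beta-catenin target genes, where 16 of 20 measured genes were lower (13 after lowess) with a median of -0.14. SOX9, a progenitor cell transcription factor, was 2.84-fold lower, from 10.20 in EBC1 to 8.69 in EBC1-R. FOSL1, an AP-1 subunit that ERK signalling also induces, was 2.71-fold lower, from 11.50 to 10.07. BMP4, a ligand of the BMP pathway, was 2.28-fold lower, from 10.39 to 9.20. MMP7, a secreted protease, was 3.37-fold higher, from 5.96 to 7.72. All 4 are also induced by other pathways, and which pathway had a part in their differences was not tested. The more restricted targets NKD1, SP5, LGR5, LEF1, ASCL2, NOTUM, RNF43, ZNRF3 and APCDD1 differed by -0.25 to 0.18, and were singled out after their values were seen. Of these only SP5 was above the level filter, so the low readings of the others, like that of AXIN2, say little about a change.

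PRICKLE1, a cytoplasmic protein of planar polarity, was 3.17-fold lower, from 11.09 in EBC1 to 9.42 in EBC1-R. It was the 1 gene of 13 in the list of non-canonical receptors and planar polarity past 1.5-fold. DAAM1, which links WNT receptors to actin, was 0.51 higher at the other end, and ROR1, a WNT5A receptor, differed by -0.35 from 8.57. That list had 9 lower and 4 higher genes and a median of -0.12.

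In the cytoplasmic relay and destruction complex 15 of 18 measured genes were lower (14 after quantile normalization, median centring or lowess), with a median of -0.16. DVL1, which carries the signal from Frizzled, was 1.58-fold lower, from 9.59 in EBC1 to 8.92 in EBC1-R, and AMER1 had the largest positive difference, 0.30. CTNNB1, beta-catenin itself, read at 11.30 in EBC1 and 11.14 in EBC1-R. Of the 11 measured nuclear factors 8 were lower. BCL9L, a beta-catenin cofactor, was 1.76-fold lower, from 9.76 to 8.95, whereas TLE1, a co-repressor of TCF factors, was 1.76-fold higher, from 8.10 to 8.92. TCF7L2, a main TCF factor of epithelia, differed by -0.48 from 8.96.

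No gene that acts on receptor turnover or ligand release reached 1.5-fold, although the median size of difference, 0.23 for the 9 genes of receptor turnover, was close to the 0.20 of the relay and the 0.22 of the targets. LGR4, an R-spondin receptor, was 1.46-fold higher, from 8.64 in EBC1 to 9.19 in EBC1-R, the 1 gene of its list of 9 above the level filter. LGR6 had the most negative difference there, -0.29. WLS, which escorts WNT ligands out of the cell, read at 9.33 in EBC1 and 9.72 in EBC1-R. Among 11 other secreted or surface antagonists 5 were higher and 5 lower with a median of 0, and SOST read the same on both arrays. After lowess 8 were higher and 3 lower. DKKL1 was 0.57 higher from a low 5.94, TPBG was 0.53 higher from 10.01, and WIF1 differed by -0.25, none of them 1.5-fold. 

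**Figure D3:**
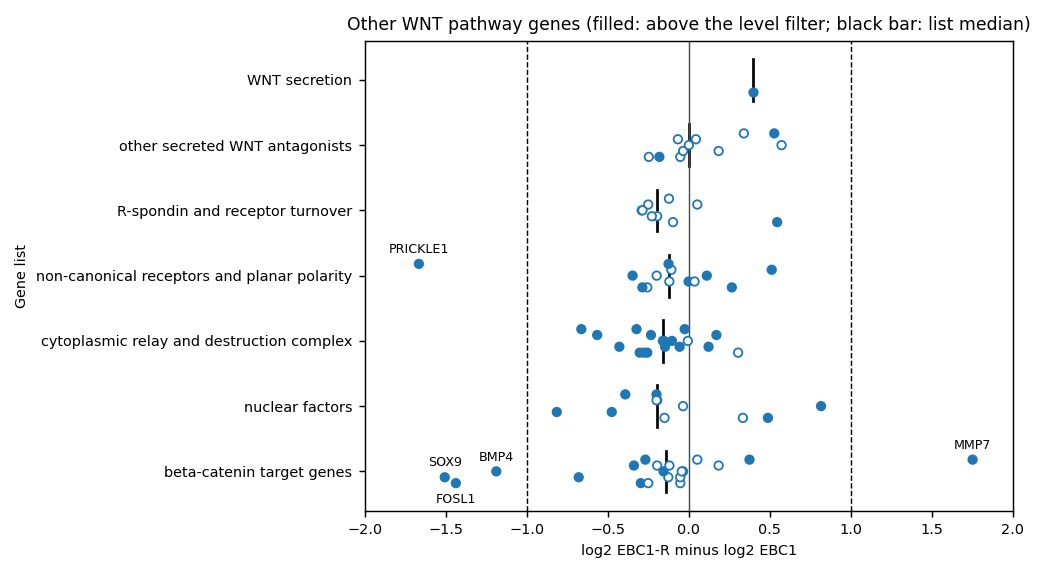
Differences of the other WNT pathway genes, log2 EBC1-R minus log2 EBC1 (x axis), by list (y axis); filled circles are genes above the level filter, open circles are under it, black bars are list medians and dashed lines mark 2-fold. PRICKLE1, SOX9, FOSL1 and BMP4 lie left of the dashed lines and MMP7 right of them.

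Genes beside each member on its chromosome, 5 measured genes on each side in RefSeq order, were set beside it. WNT5B lies on chromosome 12 among genes that were higher in EBC1-R: its neighbours had a median difference of 1.11, with 5 of 10 at least 2-fold higher, and WNT5B itself differed by -0.0031. With 10 genes on each side the median was 0.50. ERC1 on one side was 2.87-fold higher, and ADIPOR2 on the other 1.95-fold. At 6.33 WNT5B was under the level filter, as were the 3 neighbours with a difference between -0.23 and 0.07, CACNA2D4, LRTM2 and CACNA1C. The 7 neighbours past 1.5-fold were all above the filter.

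FZD1 on chromosome 7 lies directly beside CDK14, a cell cycle kinase gene that was 2.32-fold higher. FZD1 differed by -0.18, as did MTERF1 on its other side, and the median of the 10 neighbours was -0.21. LRP6 lies on chromosome 12 beside MANSC1, which differed by -2.07, while BCL2L14 on the other side differed by -0.05. WNT7A on chromosome 3 had neighbours between -0.39 and 0.32 with a median of -0.01, none 1.5-fold different. With 10 genes on each side, or with 5 above the level filter, 2 neighbours were 1.5-fold higher and 1 was 1.5-fold lower, with medians of -0.01 and -0.08. SFRP1 had neighbours between -0.20 and 0.56 and FZD2 between -0.18 and 0.22. WNT5A lies among genes from -0.19 to 0.63 with a median of 0.14, of which SELENOK was 1.54-fold higher. Around FZD7, 7 of 10 neighbours were higher, from -0.20 to 0.44 with a median of 0.13, and of the nearest 10 above the filter 9 were higher with a median of 0.25, none by 1.5-fold. FZD3 on chromosome 8 lies directly beside FBXO16, which was 2.71-fold higher from 7.27 to 8.71. EXTL3 on its other side differed by 0.18, and DUSP4 in the same window was 2.05-fold lower. The median of the 10 neighbours of FZD3 was 0.13. With 10 genes on each side it was -0.04, and 12 of the 20 were lower. WNT6 and WNT10A, neighbours on chromosome 2, differed by -0.02 and -0.24.

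**Figure D4:**
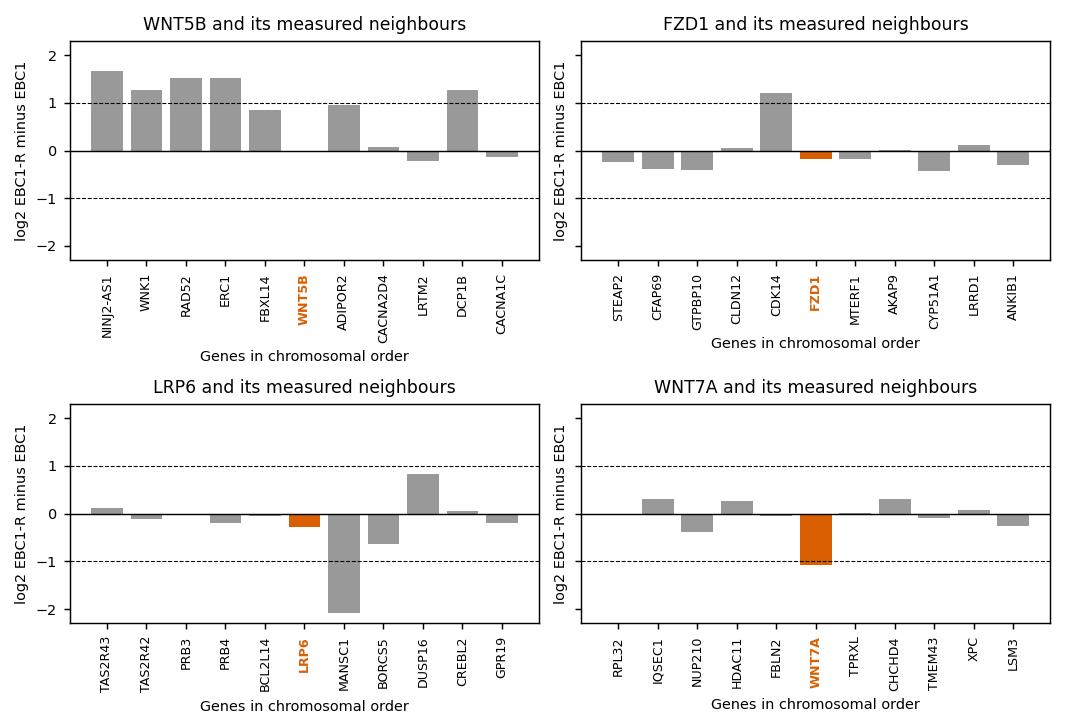
Difference, log2 EBC1-R minus log2 EBC1 (y axis), of WNT5B, FZD1, LRP6 and WNT7A (orange, name in bold) and of 5 measured genes on each side in chromosomal order (grey); dashed lines mark 2-fold. WNT5B has no visible bar because its difference was -0.0031, between FBXL14 and ADIPOR2 at 0.84 and 0.96.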

How the data were processed

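Per the labels' protocols, RNA came from frozen cells (Trizol), and biotin-labelled cDNA was prepared from 100 ng. Those labels name an array with 22282 probe sets, whereas the table holds 28869 that match the annotation of a whole-transcript Affymetrix gene array. The values the authors deposited are read here as log2 intensities from their range. Their log base, background correction, summarization and normalization are not given in the sources used. The sorted columns differed by at most 0.17, so the arrays had been scaled alike, which removes change shared by most genes.

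A total of 19310 probe sets name 1 gene, 1752 several and 7807 none in the annotation; those naming 1 gene were averaged by gene (Python 3.11.15, pandas 2.3.3). The 39 members had 40 probe sets. There was 1 array a group, so no test was run. Counting was checked on simulated data. Every member is named. Values are given for members past 1.5-fold or above the level filter, and, of other pathway genes, for those past 2-fold and for the ends of each list. The members and lists were chosen with earlier results of these data known. Alternatives were quantile normalization, median centring, a lowess trend (span 0.2), a pseudocount of 16, the brightest probe set, level filters and wider neighbour windows. PORCN, CSNK1E, TCF7, TP63 and KRT6A had no probe set with 1 gene name. 1 WNT gene is not reported here. The array design's build was not given, so gene order came from RefSeq and coordinates only from its promoter table, both GRCh38.p14.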

Additional observations from a re-analysis of the deposited data

How the results depend on the processing

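The 2-fold counts of members stayed at 0 higher and 1 lower under quantile normalization, median centring, lowess and the brightest probe set. The 1.5-fold higher count went from 2 to 3 under quantile normalization, median centring and lowess. After lowess the 1.5-fold lower count went from 3 to 2. The medians of the members and of each class stayed within 0.16 log2 units under these 4 settings. With a pseudocount of 16, 0 members were at least 2-fold lower, since WNT7A differed by -0.97. At 1.5-fold 2 members were then lower and 1 member was higher. Above the level filter, likewise 1 member was at least 1.5-fold higher; the DKK and SFRP medians there were -0.46 and -0.81, also with a filter on the mean of both arrays, because each class then held 1 gene, DKK1 or SFRP1. No called difference of a member changed sign under these 5 settings. SFRP1 ranged from -0.83 to -0.76, FZD2 from 0.66 to 0.75, FZD7 from 0.56 to 0.70 and WNT5A from -0.62 to -0.43. The number of members above the level filter was 14 with either filter. Neighbour medians moved by over 0.16 for 2 members with 10 genes a side and for 7 with neighbours above the filter alone. With 1 array a group no array could be left out, and no paired analysis was possible because each line had 1 array. Without detection calls, low readings cannot be told from background.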
